A study of Rattus norvegicus with 6 samples.

Results

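The genes described here are 31 genes of cholesterol and lipid synthesis, of 16569 genes that the probes of the array name. They are the enzymes from acetyl-CoA to cholesterol, the proteins that switch these enzymes on or off, 3 genes of fatty acid and glycerolipid synthesis, and 4 genes of the liver X receptors and cholesterol efflux. The rule selects by gene symbol and uses no measured value, but the set was proposed with earlier results of these data known. Each gene was represented by whichever of its probes was brightest on average, and all 31 had such a probe among the 10386 genes kept for testing.

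Expression was measured in neonatal rat ventricular cardiomyocytes (NRVCs), primary heart muscle cells taken from the ventricles of 8 to 10 pooled Sprague-Dawley rats at 1 to 2 days of age. There were 3 control arrays from cells in control medium and 3 arrays from cells given recombinant C3a, the anaphylatoxin cleaved from complement C3, at 0.5 µg/ml for 12 h. The growth notes name a serum-free medium, and the study's methods name a short starvation in low serum before C3a was added. Both groups shared these conditions and no array came from cells in full serum, so the levels below have no comparator with plentiful lipoprotein. The labels number the samples of each group 1 to 3, and do not say whether they came from separate preparations, so p-values measure the spread between these samples, which may be technical. The 6 samples lay on 1 slide with the controls in one row and the C3a samples in the other, so treatment and row cannot be told apart.

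Animal cells make cholesterol from acetyl-CoA through mevalonate, squalene and lanosterol. When sterol in the endoplasmic reticulum runs low, SCAP escorts the transcription factor SREBP2, the product of Srebf2, to the Golgi for cleavage, and the freed part enters the nucleus and raises nearly every gene of the pathway together; INSIG proteins hold SCAP back when sterol is plentiful. SREBP1, the product of Srebf1, acts mainly on fatty acid synthesis, while the liver X receptors Nr1h2 and Nr1h3 respond to oxysterols and raise the cholesterol exporters Abca1 and Abcg1. Sterol excess therefore moves the synthesis genes and the exporters in opposite directions in many cells.

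Because SREBPs act at promoters together with NF-Y, a factor that binds CCAAT, the 250 bases before the start site were read for the members. RefSeq promoters of the GRCr8 assembly were found for 25 of the 31 members, 16 of them among the 20 sterol synthesis genes (the enzymes from Acat2 to Dhcr7, with Insig1 and Stard4). CCAAT on either strand (CCAAT or ATTGG) was found in 13 of these 16 windows, 81.2%, beside 34% of all 33469 promoter windows, and in 4 of the other 9 members. The 3 without it were Acat2, Cyp51 and Dhcr7. GGGCGG or its reverse CCGCCC, the GC box, was found in 14 of 16 beside 30.5% of all, and CACGTG, the E-box, in 2 of 16 beside 5.59%. TCACNCCAC or GTGGNGTGA, one spelling of the sterol regulatory element, was found in 0 of 16 and in 0.974% of all. Each motif was searched separately on both strands, so matches may overlap, and Srebf1 was counted once over its 2 start sites. A match is a string of letters and not a binding site, and the absence of one spelling says only that these letters were not in this window.

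5 windows are shown, with CCAAT and ATTGG in capitals and every sequence written from 5′ to 3′ on the strand of the gene. Idi1, Msmo1 and Hmgcs1 are shown because their signal followed that of the other synthesis genes most closely among those with a window, Sc5d because it was the one member below the unadjusted threshold when arrays were paired, and Abca1 as an exporter that varied the opposite way. The Idi1 window lies at chr17:66547525-66547774 on the minus strand, Msmo1 at chr16:29746863-29747112 on the plus strand, Hmgcs1 at chr2:53382054-53382303 on the plus strand, Sc5d at chr8:51538278-51538527 on the minus strand and Abca1 at chr5:72596474-72596723 on the minus strand.
Idi1: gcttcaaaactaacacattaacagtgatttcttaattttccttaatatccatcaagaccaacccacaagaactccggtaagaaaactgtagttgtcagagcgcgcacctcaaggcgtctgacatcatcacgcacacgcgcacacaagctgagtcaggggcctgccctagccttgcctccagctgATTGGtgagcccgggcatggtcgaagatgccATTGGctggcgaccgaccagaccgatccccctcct
Msmo1: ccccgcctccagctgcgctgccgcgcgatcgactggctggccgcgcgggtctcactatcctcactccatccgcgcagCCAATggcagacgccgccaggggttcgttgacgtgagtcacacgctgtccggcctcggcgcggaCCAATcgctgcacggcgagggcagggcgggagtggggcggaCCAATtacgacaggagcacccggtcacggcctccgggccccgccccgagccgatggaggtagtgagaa
Hmgcs1: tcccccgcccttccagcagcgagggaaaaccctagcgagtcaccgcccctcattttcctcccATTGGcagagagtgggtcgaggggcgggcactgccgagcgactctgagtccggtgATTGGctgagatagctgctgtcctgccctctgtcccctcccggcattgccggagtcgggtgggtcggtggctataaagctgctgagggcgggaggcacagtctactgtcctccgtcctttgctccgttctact
Sc5d: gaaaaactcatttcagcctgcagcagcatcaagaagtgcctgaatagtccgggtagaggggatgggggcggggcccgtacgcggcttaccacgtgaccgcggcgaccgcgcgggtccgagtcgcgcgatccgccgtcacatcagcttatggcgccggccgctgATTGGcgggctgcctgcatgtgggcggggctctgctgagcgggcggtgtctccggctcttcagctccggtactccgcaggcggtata
Abca1: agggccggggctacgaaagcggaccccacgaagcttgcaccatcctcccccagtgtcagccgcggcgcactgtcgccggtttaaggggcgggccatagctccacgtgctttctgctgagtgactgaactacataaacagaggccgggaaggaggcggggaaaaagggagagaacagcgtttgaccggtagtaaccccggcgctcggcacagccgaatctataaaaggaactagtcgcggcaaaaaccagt
The Idi1 and Hmgcs1 windows held 2 matches each, the Msmo1 window 3, the Sc5d window 1 and the Abca1 window 0.

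The array values are log2 signal minus the 75th percentile of the same array, so a value of 0 is a probe at that percentile. The pathway was readily measured in these cells. Of the 31 members, 29 were well above background on all 6 arrays, beside 8552 of all 16569 genes. The other 2, Scd and Lpin1, were so in 2 of the 3 controls and in all 3 of the C3a group. On all 6 arrays 19 members, 13 of them sterol synthesis genes, lay above the 75th percentile, and 9 lay below it. The percentile runs over all probes, while each gene is read by its brightest probe, which raises the number above it. The share of all genes above it is not given here. The probes differ in brightness for reasons other than transcript number, so the levels of different genes are not set against each other here. All 7 cardiomyocyte markers were well above background on all 6 arrays, and of 3 adipocyte markers with a probe, none was so on any array. In RNA from whole cultures, fewer cells of a type and less RNA per cell cannot be told apart.

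**Figure D1:**
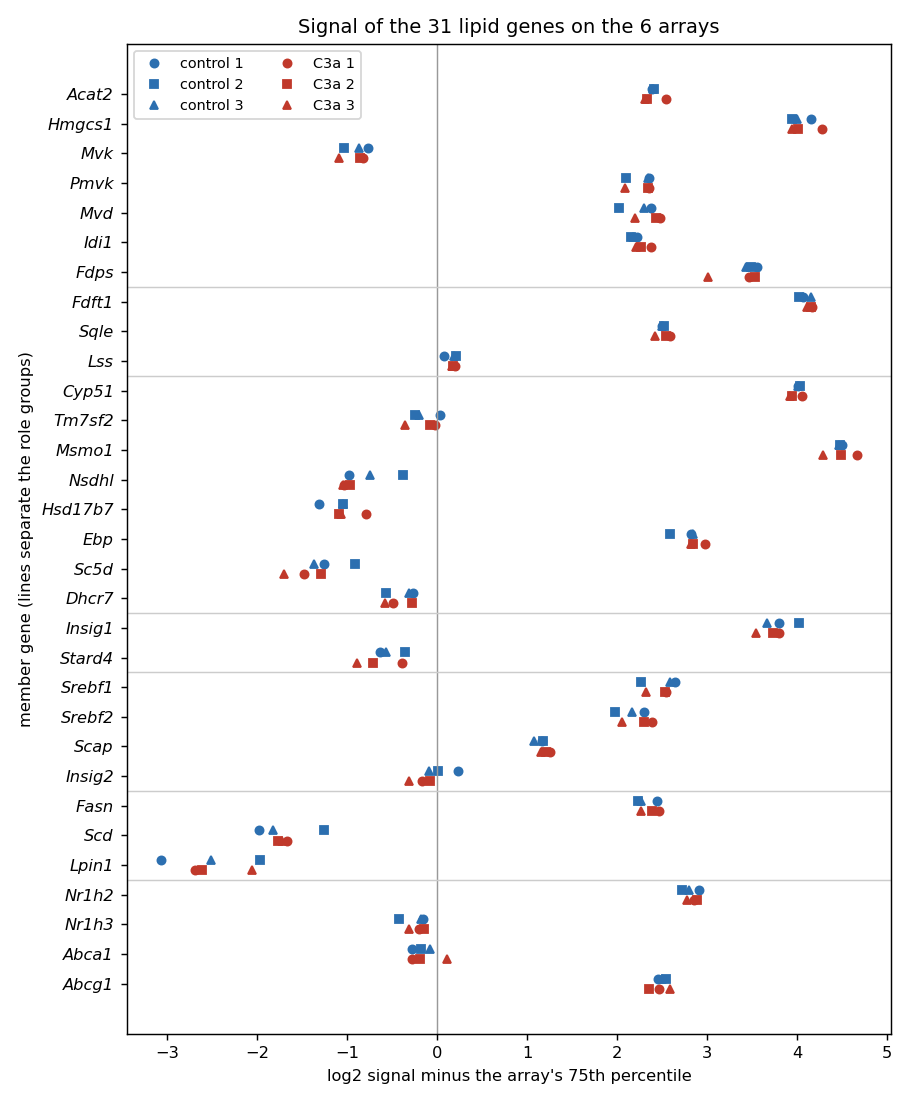
Log2 signal minus the 75th percentile of its array (x axis) for the 31 members (y axis, grouped by role), with control arrays in blue, C3a arrays in red and the replicate number by shape. The control and C3a points overlap for all 31 members, and the span over the 6 arrays is widest for Lpin1, from -3.07 to -1.97.

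No member passed a test of C3a against control without the block. None of the 31 passed an adjusted p under 0.05 in limma, beside 0% of all 23438 probes tested. At an unadjusted p under 0.05, 0 of 31 were higher with C3a, beside 2.92% of all genes, and 0 of 31 were lower, beside 2.46%; the methods' t-test likewise gave 0 and 0 members. In no member did the groups separate, beside 8.1% of genes with all C3a arrays above all controls and 4.89% with all C3a arrays below. The median log2 fold change was -2e-04 over the 31 members and -0.0025 over the 20 sterol synthesis genes, beside 0.036 over all genes, and the differences ran from -0.32 for Nsdhl to 0.15 for Hsd17b7. Adjusted p-values of the members in limma ran from 0.745 to 0.999.

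The precision of the differences is given by their intervals. The 95% interval of the difference lay within 0.5 log2 units on both sides of 0 for 25 of the 31 members and for 16 of the 20 sterol synthesis genes. Over all members the intervals reached from -0.69, the lower end for Sc5d, to 0.75, the upper end for Lpin1. The standard deviation between arrays of one group had a median of 0.14 in controls and 0.13 with C3a over the members. Differences inside these intervals remain compatible with the values of 3 arrays a group, and no smallest detectable change was computed.

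**Figure D2:**
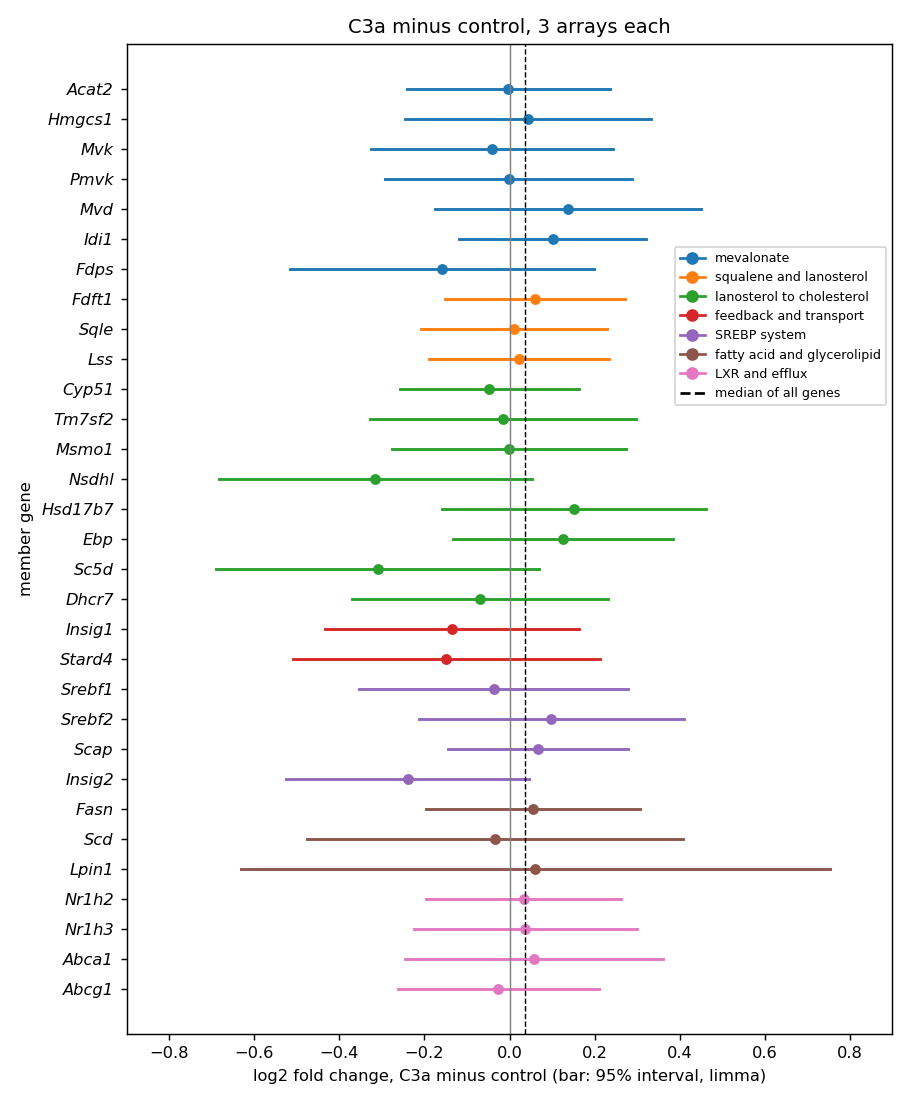
Log2 fold change, C3a minus control (x axis), of each member (y axis), with points for the estimate and bars for its 95% interval in limma on 3 arrays a group, coloured by role; the dashed line is the median of all genes at 0.036. All 31 bars cross 0, and Nsdhl, Sc5d and Insig2 lie farthest to the left.

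Of the 7 genes of the mevalonate steps, 3 had estimates above 0 and 4 below, and none passed either test. Hmgcs1, which joins acetyl-CoA to acetoacetyl-CoA at the entry to the pathway, read 4.16, 3.95 and 4.0 on the control arrays and 4.28, 4.01 and 3.95 with C3a. The groups overlapped, with C3a replicate 1 the highest of the 6 and control replicate 2 the lowest. The log2 fold change was 0.04 (SE 0.12, n = 3 a group, limma adjusted p = 0.923). The differences of the rest of this group, the thiolase Acat2, the kinases Mvk and Pmvk, the decarboxylase Mvd, the isomerase Idi1 and the farnesyl diphosphate synthase Fdps, ran from -0.16 for Fdps to 0.14 for Mvd. For Fdps, C3a replicate 3 read 3.01 and the other 5 arrays 3.43 to 3.56.

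The genes of squalene and lanosterol formation differed by at most 0.06. Sqle, squalene epoxidase, a rate-limiting step of the later pathway, read 2.50, 2.53 and 2.50 on the control arrays and 2.59, 2.55 and 2.42 with C3a. The controls sat inside the span of the C3a arrays, and the log2 fold change was 0.01 (SE 0.09, n = 3 a group, limma adjusted p = 0.978). Squalene synthase (Fdft1) differed by 0.06 and lanosterol synthase (Lss) by 0.02, and all 3 estimates were above 0.

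The steps from lanosterol to cholesterol held 2 of the 3 members with the lowest p-values, the third being Insig2. Sc5d, the sterol desaturase that acts shortly before cholesterol is formed, read -1.26, -0.91 and -1.37 on the control arrays and -1.48, -1.29 and -1.70 with C3a. The groups overlapped because C3a replicate 2 lay above control replicate 3. The log2 fold change was -0.31 (SE 0.16, limma unadjusted p = 0.0951, adjusted p = 0.745). With the replicate number as a block, Sc5d was lower with C3a in 3 of 3 pairs, with log2 differences of -0.22, -0.38 and -0.33 (limma unadjusted p = 0.0163, adjusted p = 0.274). It was the 1 of 31 members lower at an unadjusted p under 0.05 with the block, 3.23%, beside 6.07% of all genes, and 0 of 31 were higher, beside 5.79%; that share is no larger than the background. Leaving out control replicate 2, its highest array, took the difference without the block from -0.31 to -0.17. Leaving out C3a replicate 3 took it to -0.20, array weights took it to -0.12, and normexp background correction took it to -0.10. The difference was larger, at -0.41, without control replicate 3 and also without C3a replicate 2.

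Nsdhl, a dehydrogenase that removes methyl groups from the sterol, had the lowest unblocked p-value of the members, with a log2 fold change of -0.32 (SE 0.16, limma unadjusted p = 0.0823, adjusted p = 0.745). The C3a arrays were tightly grouped, between -1.04 and -0.97, while the controls spread from -0.98 to -0.38. Without control replicate 2 the difference was -0.16, and without control replicate 1 it was -0.45 with an unadjusted p of 0.0162 in limma. Of the other 6 genes here, the demethylase Cyp51, the reductase Tm7sf2, the monooxygenase Msmo1 and the reductase Dhcr7 differed by -0.07 to -2e-04. The ketoreductase Hsd17b7 differed by 0.15 and the isomerase Ebp by 0.13, and none of these 6 passed a test.

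The sterol sensor genes moved no further. Insig1, both an SREBP target and a brake on SREBP, read 3.80, 4.02 and 3.67 on the control arrays and 3.80, 3.73 and 3.55 with C3a. The groups overlapped, with a log2 fold change of -0.14 (SE 0.13, n = 3 a group, limma adjusted p = 0.766) and lower values in 3 of 3 same-numbered pairs, with a difference of -0.01 in the first. The fold change was -0.04 without control replicate 2, -0.06 without C3a replicate 3 and -0.0088 with array weights. It was -0.19 with quantile normalization, -0.22 without control replicate 3 and -0.37 with the kept probes of the gene averaged. Stard4, a cholesterol carrier, differed by -0.15. Srebf2 read 2.30, 1.98 and 2.17 on the control arrays and 2.39, 2.29 and 2.05 with C3a, with a log2 fold change of 0.10 (SE 0.13, limma adjusted p = 0.826). Srebf1 read 2.64, 2.27 and 2.59 on the control arrays and 2.55, 2.53 and 2.32 with C3a, with a log2 fold change of -0.04 (SE 0.13, limma adjusted p = 0.94). In both SREBP genes the array of lowest signal was control replicate 2 and the groups overlapped.

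Scap, the escort, was higher in 3 of 3 same-numbered pairs with a log2 fold change of 0.07. Insig2, the second brake, was lower in 3 of 3 pairs. It read 0.23, 0.01 and -0.09 on the control arrays and -0.17, -0.08 and -0.32 with C3a, and only control replicate 3 at -0.09 and C3a replicate 2 at -0.08 crossed over. The log2 fold change was -0.24 (SE 0.12, limma unadjusted p = 0.0876, with the block 0.0599). Over all members, 4 were lower in 3 of 3 pairs (Nsdhl, Sc5d, Insig1 and Insig2), beside 15.2% of all genes, and 2 were higher in 3 of 3 (Idi1 and Scap), beside 23.4%.

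**Figure D3:**
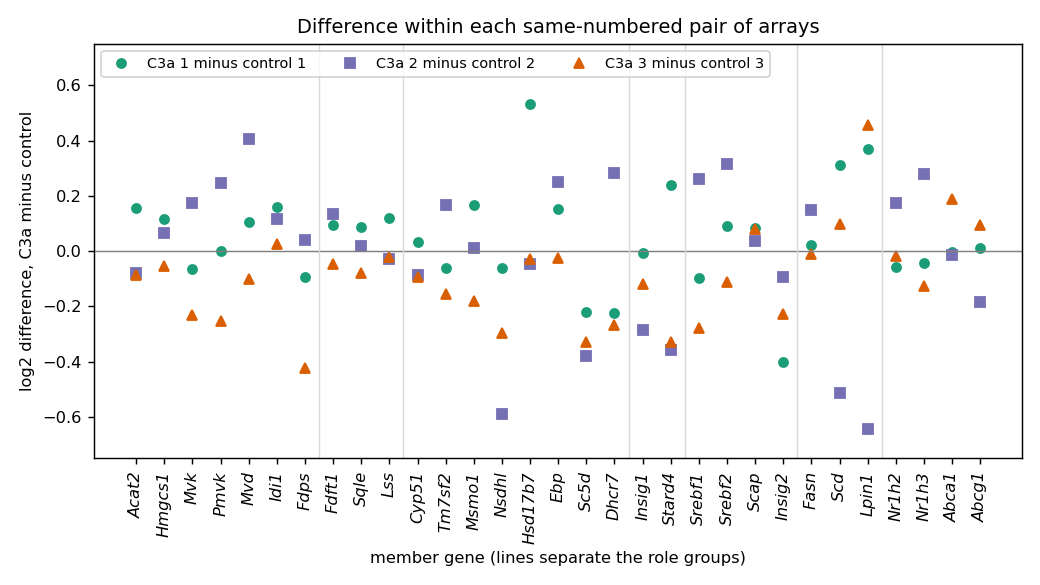
Log2 difference between the C3a and control array of the same replicate number (y axis) for the 31 members (x axis, grouped by role), with 1 colour and shape per pair. Points of 1 gene mostly fall on both sides of 0; Sc5d lies at -0.22, -0.38 and -0.33, and Scd and Lpin1 spread most.

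Fatty acid and efflux genes showed the same picture. Fasn, fatty acid synthase, read 2.44, 2.23 and 2.27 on the control arrays and 2.46, 2.38 and 2.26 with C3a, with overlapping groups and a log2 fold change of 0.05 (SE 0.11, limma adjusted p = 0.885). The desaturase Scd differed by -0.03 (SE 0.19) and the phosphatidate phosphatase Lpin1 by 0.06 (SE 0.29), and in both control replicate 2 was the highest control and control replicate 1, the array with the higher local background, the lowest. Nr1h3 read -0.16, -0.43 and -0.18 on the control arrays and -0.21, -0.15 and -0.31 with C3a, with a log2 fold change of 0.04 (SE 0.11, limma adjusted p = 0.927). Nr1h2 differed by 0.03.

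The exporters did not separate by treatment. Abca1, which loads cholesterol onto lipid-poor apolipoprotein, read -0.28, -0.18 and -0.08 on the control arrays and -0.28, -0.19 and 0.10 with C3a, with a log2 fold change of 0.06 (SE 0.13, limma adjusted p = 0.899). Abcg1, which exports cholesterol to larger lipoprotein particles, read 2.45, 2.54 and 2.49 on the control arrays and 2.47, 2.36 and 2.59 with C3a, with a log2 fold change of -0.03 (SE 0.10, limma adjusted p = 0.945). In both genes C3a replicate 3 was the highest of the 6 arrays. Macrophages are rich in both exporters. Of 7 macrophage markers, 3 were well above background on all 6 arrays and Mrc1 on none. The summed linear level of the 7 relative to the 75th percentile was 21.6 to 28.2 in controls and 22.1 to 27.9 with C3a. Most of that sum came from Lgals3, which read 3.99 to 4.46 in log2, beside 2.21 to 2.57 for Lyz2. The part of macrophages in the exporter signal was not tested.

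Genes with several probes did not always give one answer. The 31 members had 41 probes, of which 40 were kept, and 8 genes had more than 1. A dimmer probe of Acat2, chosen here after its values were seen, read -1.75, -1.53 and -2.03 on the control arrays and -2.26, -2.15 and -2.62 with C3a. Its groups did not overlap, and it was the 1 member probe lower at an unadjusted p under 0.05, beside 2.5% of all probes. Its log2 fold change was -0.58 (SE 0.17, limma unadjusted p = 0.0124, adjusted p = 0.745, with the block adjusted p = 0.22), while the brightest Acat2 probe differed by -0.003 and the remaining 2 by -0.01 and -0.16. With the block 4 member probes were lower at an unadjusted p under 0.05, beside 5.85% of all probes: this one, that of Sc5d, and dimmer probes of Insig1 (-0.60, against -0.14 for the brightest) and Srebf1 (-0.26, against -0.04). The second probes of Cyp51 and Hsd17b7 had the opposite sign to the brightest, at 0.11 and -0.28, and the second probe of Stard4 was above background on no array.

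Although treatment separated none of them, the sterol synthesis genes varied together over the 6 arrays, a pattern that rested largely on C3a replicate 3. After the mean of each group was subtracted, the correlation between pairs of the 20 genes over the 6 arrays had a median of 0.465, and 150 of 190 pairs (78.9%) were above 0. Over all pairs of genes the median was 0.0929 and 55% were above 0. These correlations rest on 6 arrays, and the genes share the array, its scaling and its RNA sample. Without C3a replicate 3 the median was 0.0952 for the 20 genes, beside 0.079 over all genes. Idi1 had the highest median correlation to the other 19, at 0.70, followed by Msmo1 and Pmvk at 0.67 and Hmgcs1 at 0.63. Nsdhl had the lowest at -0.03, with Lss at 0.12 and Sc5d at 0.13. Outside the synthesis genes, Srebf2 had a median of 0.68, Scap 0.59, Fasn 0.58 and Srebf1 0.52 to the 20. Insig2 had 0.42, and the liver X receptors Nr1h3 and Nr1h2 had 0.41 and 0.38. Scd had -0.0077 and Lpin1 -0.50, so the fatty acid and glycerolipid genes did not follow as a group. Abca1 had -0.65 and Abcg1 -0.41, with 5 of the 40 pairs of an exporter and a synthesis gene above 0.

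The shared variation of the 20 genes was clearest among the C3a arrays. C3a replicate 3 was the lowest of the 3 C3a arrays for 19 of the 20 sterol synthesis genes, beside 50.7% of all genes, and all 20 were below their group mean on it, beside 65% of all genes. C3a replicate 1 was the highest for 16 of 20, beside 47.7% of all genes. Their median deviations from the group mean were 0.10, 0.02 and -0.13 on C3a replicates 1, 2 and 3, beside 0.05, -9e-04 and -0.05 over all genes. Among the controls no array led, with 9, 8 and 3 of the 20 genes highest on replicates 1, 2 and 3. The shares of all genes were 46.2%, 28.6% and 25.2%. The 7 mevalonate genes had a median deviation of 0.09 on control replicate 1 and -0.09 on control replicate 2, beside 0.04 and -0.05 over all genes. On control replicate 1, 6 of 7 were above the mean, beside 6642 of 10386 genes. On control replicate 2, 1 of 7 was above it, beside 3994 of 10386. Cell type markers ran the same way on these arrays. The medians were 0.14 and -0.13 for cardiomyocyte markers and 0.11 and -0.19 for kept endothelial markers. For kept macrophage markers they were 0.17 and -0.17, and for fibroblast markers 0.12 and -0.03. Srebf2, Srebf1, Scap and Insig2 were also below their group mean on C3a replicate 3, as were the liver X receptors Nr1h2 and Nr1h3. Of 9 other kept genes of fatty acid synthesis 5 were below theirs, a share of 55.6% near the 65% of all genes. C3a replicate 3 also had the lowest 75th percentile of intensity, 207 against 230 to 367 on the other arrays. On it 4 of 7 cardiomyocyte markers and 5 of 5 kept endothelial markers were below their group mean, beside 65% of all genes. So were 5 of 8 fibroblast markers and 2 of 4 kept macrophage markers. Median deviations were -0.09, -0.06, -0.02 and -0.03 in that order, beside -0.05 over all genes. All 5 endothelial markers were above the mean on C3a replicate 1, beside 7097 of 10386 genes. There 7 of 8 fibroblast, 6 of 7 cardiomyocyte and 3 of 4 kept macrophage markers were also above it. The part of intensity and of cell types in the pattern was not tested.

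This joint movement depended on that array and on the scaling. Without C3a replicate 3 the median correlation of the sterol synthesis genes was 0.0952, beside 0.079 over all genes. With the percentile taken over probes detected on all arrays it was 0.213, beside 0.0063 over all genes, and the number of sterol synthesis genes lowest on C3a replicate 3 was 10 of 20, beside 33.6% of all genes. With quantile normalization the correlation was 0.28 beside 0.0171, and the number lowest was 15 of 20 beside 44.2%. C3a replicate 1 was the highest C3a array for 12 of 20 and 13 of 20 under these scalings, beside 29.1% and 37.2% of all genes, and for 10 of 20, beside 43.2%, with normexp background correction. Without normalization or with spike-in scaling, which move all genes of an array together, it was the highest for 0 of 20. The shares of all genes there were 5.45% and 0.905%. Abca1 and Abcg1 were highest among the C3a arrays on replicate 3 under the percentile and quantile scalings and on replicate 2 without normalization and with spike-in scaling.

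**Figure D4:**
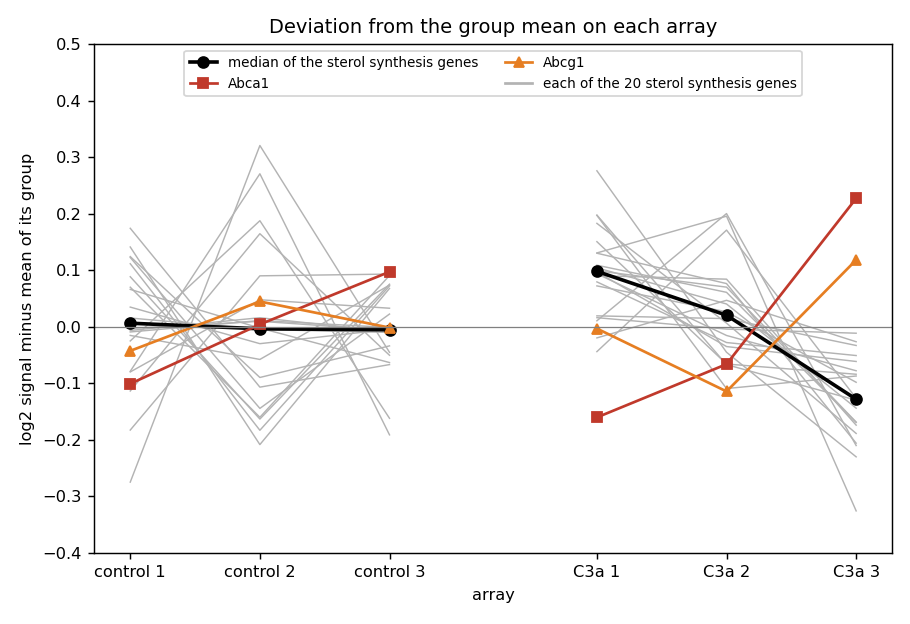
Log2 signal minus the mean of its group (y axis) on each array (x axis); grey lines are the 20 sterol synthesis genes, the black line their median, and red and orange lines Abca1 and Abcg1. Lines join the values of 1 gene and replicates have no order; the median of the synthesis genes is 0.10 on C3a replicate 1 and -0.13 on C3a replicate 3, where both exporters are at their highest.

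Other genes of these pathways that are not members were read the same way. Of 31 listed, 30 had a probe and 26 were kept. At an unadjusted p under 0.05 in limma, 0 were higher and 0 lower, and the median log2 fold change was -0.02. With the block 3 of the 26 were lower, beside 6.07% of all genes, and 1 was higher, beside 5.79%. Acss2, which makes acetyl-CoA from acetate, read 0.07, 0.61 and 0.01 on the control arrays and -0.29, 0.09 and -0.39 with C3a, lower in 3 of 3 pairs although the groups overlapped (log2 fold change -0.43, limma adjusted p = 0.22 with the block). Lpcat3, a phospholipid acyltransferase and LXR target, differed by -0.40 (limma adjusted p = 0.233 with the block) and Pltp, the phospholipid transfer protein, by -0.33. Cyp7b1, an oxysterol hydroxylase and the 1 gene higher with the block, differed by 0.29. It was above background on 2 of the 3 controls and on all 3 C3a arrays. The filter therefore kept it only through the group where it was higher, so that call is not independent of the filter. The groups did not overlap for 2 of the 26, both lower with C3a, beside 4.89% of all genes: Rnf139, a ubiquitin ligase of the endoplasmic reticulum (-0.20), and Rxra, the partner of the liver X receptors (-0.17).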

How the data were processed

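RNA of 6 NRVC samples was hybridised to one-colour Agilent rat arrays (Cy3). The authors deposited spot intensities from Agilent Feature Extraction 11.5.1.1, background-subtracted and not normalized between arrays, and a table of log2 values that equals log2 intensity minus the array's 75th percentile. The methods name GeneSpring; the rest of the normalization is not given in the sources used here. Members and lists were chosen with earlier results of these data known.

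Control and outlier-flagged spots were left out, spots of one probe averaged, and the 75th percentile over all probes subtracted. No spot was saturated. Kept were 23438 of 45572 probes, well above background (at least 50% of spots) on all 3 arrays of a group. Accessions gave a gene for 46.3% of probes through the RefSeq table of GRCr8, and a gene's brightest probe stood for it. Values in every array are given for members under an unadjusted p of 0.05 with or without the replicate block, members whose groups do not overlap, and Hmgcs1, Insig1, Sqle, Srebf2, Srebf1, Fasn, Abca1, Abcg1 and Nr1h3; others were named after their values were seen. Differences between C3a and control were fitted with limma 3.58.1 under R 4.3.3 (two-sided, Benjamini-Hochberg over kept probes), after a test on simulated data. Correlations are Pearson's over deviations from group means and have no test. Figures used matplotlib 3.10.9.

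Deviations from the group mean correlated at 0.28, 0.32 and 0.31 between arrays of the same number and at -0.26 to -0.093 between others. Deviations sum to 0 within a group, so positive values at the same number bring the others below 0 on average. The numbers were treated as pairs in an alternative fit with a replicate block. The pairing comes from these values, as the labels give only the number. What arrays of the same number share was not tested. Control replicate 1 had a local background of 47 against 23 to 24 and 38.6% of probes well above background against 53.7% to 57.3%. The number of arrays limits the precision. Alternatives covered scaling, filter, background correction (normexp, offset 50, on the median spot signal) and the deposited log2 table. They also covered variance trend, array weights, a t-test with pooled variance, probe averaging, the block and leaving out each array. The count of genes lowest on C3a replicate 3 was added after seeing the data.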

Additional observations from a re-analysis of the deposited data

How the results depend on the processing

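The number of members past the adjusted threshold (0) and the number higher at an unadjusted p under 0.05 (0) were unchanged in 20 of 20 alternatives. The number lower at an unadjusted p was 0 in 15 of 20; it was 1 with the percentile over detected probes (Insig2), 1 with the replicate block (Sc5d), 3 without normalization and 2 with spike-in scaling, and 0 to 1 when an array was left out, with 1 (Nsdhl) without control replicate 1. The paired analysis changed no other member's call. Without normalization the median log2 fold change of all probes moved from 0.05 to -0.28 and with spike-in scaling to -0.40, and that of the sterol synthesis genes to -0.33 and -0.45; relative to all probes it was -0.05 in each of the 3. Leaving out 1 array moved it between -0.07 and 0.05. The median pairwise correlation of the sterol synthesis genes was 0.913 without normalization and 0.962 with spike-in scaling, where all genes were at 0.811 and 0.922, and 0.213 with the percentile over detected probes; leaving out 1 array gave 0.0952 (without C3a replicate 3) to 0.649. The number of them lowest on C3a replicate 3 was 10 with the percentile over detected probes, beside 33.6% of all genes. It was 15 to 20 in the other 9 alternatives. The counts of 20 came without normalization and with spike-in scaling, where 83.5% and 93.3% of all genes were lowest on that array. The cause of these changes was not tested. Leaving aside the 2 scalings that shift all genes together, 12 of the 31 members, 6 with a difference above 0 and 6 below, kept its sign in every alternative and 19 changed sign in at least 1.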
